A study of Mus musculus with 8 samples.

Results

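The insulin-like growth factor (IGF) axis was followed through 10 genes in mouse embryonic stem cells (ESC) and in neural progenitor cells (NPC) derived from them, with and without Wdr68. They are the ligands Igf1 and Igf2, the receptors Igf1r and Igf2r, the binding proteins Igfbp2, Igfbp3, Igfbp4, Igfbp5 and Igfbpl1, and H19, the noncoding RNA beside Igf2. They were taken by symbol and each was found, which made 10 of the 24318 symbols in the tables. The RNA was sequenced as poly(A) libraries in 4 groups of 2: Wdr68 knockout NPC (KO NPC), wild-type NPC (WT NPC), Wdr68 knockout ESC (KO ESC) and wild-type ESC (WT ESC). All derive from E14, a widely used male mouse ESC line. ESC were grown in serum with LIF and inhibitors of Mek and GSK3, on feeder fibroblasts or gelatin. NPC were made without LIF or the inhibitors, in hanging drops of 500 cells for 2 days, then for 2 days in low-attachment plates, and retinoic acid was present for the last 4 days, and the labels name no sort of the resulting cells. How the knockout was made, whether it is 1 clone, and whether the 2 libraries of a group came from separate cultures are not given in the sources used here. The p-values therefore measure only how much these libraries vary, and that variation may be technical.

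IGF1 and IGF2 are secreted growth factors that signal through the tyrosine kinase IGF1R, mainly to the PI3K-AKT and MAPK branches. IGF2R carries no kinase and takes IGF2 to the lysosome, while the IGF binding proteins hold the ligands outside the cell and set how much reaches a receptor. In the mouse, Igf2 is expressed mainly from the paternal allele and H19 from the maternal one, under a shared control region that CTCF binds, and Igf2r is expressed mainly from the maternal allele. The deposited levels do not separate the alleles.

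Dcaf7, the gene of WDR68, checked the labels. It had 8.36 and 8.99 FPKM (a fragment number divided by transcript length in kilobases and by library size) in KO NPC, against 27.2 and 29.6 in WT NPC, and 2.80 and 2.26 in KO ESC, against 12.4 and 14.2 in WT ESC. It was lower in both knockout groups and not at 0. The tables imply 5996677 to 7942644 fragments per library. Marker lists differed between the NPC groups. Over all genes tested, 14.7% were higher and 12.7% lower in KO NPC at an adjusted p under 0.05. Neural progenitor markers summed to 46.6 to 49.0 FPKM in KO NPC and 271 to 276 in WT NPC, with 7 of 8 lower. Neuron markers summed to 10.9 to 16.1 in KO NPC and 302 to 320 in WT NPC, with 5 of 5 lower. In ESC the neuron list summed to 115 in KO and 118 in WT, above KO NPC, with Stmn2 at 77.7 to 79.6 FPKM. Endothelium and blood markers summed to 856 to 1052 FPKM in KO NPC and 90.2 to 119 in WT NPC. Of the tested markers 7 of 7 were higher, but Tal1 reached 1 FPKM in KO NPC only and so entered the test through that group. Gata1 was not tested, being under 1 FPKM in every library, and was at 0 in WT NPC. Most of the sum in KO NPC came from the globin genes Hba-x (430 and 525), Hbb-bh1 (206 and 261) and Hbb-y (194 and 242). The endothelial markers Kdr, Cdh5 and Pecam1 had at most 10.4 FPKM there. Mesoderm markers summed to 121 to 142 in KO NPC and 42.0 to 47.1 in WT NPC, with 5 of 7 higher and 1 lower. Endoderm markers summed to 47.9 to 59.0 in KO NPC and 11.9 to 15.7 in WT NPC. Of the 5 tested, 4 were higher and 1 lower (Sox17, a call lost in 5 of 15 alternatives). Apoa1 entered the test only through KO NPC and Sox17 only through WT NPC, so their calls are descriptions. Most of the sum in KO NPC came from Gata4 (30.0 and 23.5) and Gata6 (20.9 and 17.7). Afp, Ttr, Apob, Cubn and Amn were under 1 FPKM in every library, with Amn at 0 in KO NPC. Feeder fibroblast markers ran the other way, at 65.8 to 75.9 in KO NPC and 89.4 to 100.5 in WT NPC, with 5 of 7 lower and S100a4 at 0 in KO NPC. Of the lower genes, Lum and Dcn reached 1 FPKM in WT NPC only, so they entered the test through that group. In ESC, the stage grown on feeders or gelatin, the list summed to only 0.881 to 0.946 in KO and 1.18 to 1.43 in WT. Whether these genes mark feeders in NPC was not tested. Pluripotency markers summed to 9.32 to 13.1 FPKM in KO NPC and 7.21 to 14.6 in WT NPC, and to 3852 to 4138 in KO ESC and 3562 to 3661 in WT ESC. In NPC 2 of 7 were higher in KO and 1 lower, but the higher calls were lost in 13 (Tdgf1) and 4 (Klf4) of 16 alternatives and the lower one (Esrrb) in 1. The part of these lists in the IGF axis results was not tested. In such bulk libraries, fewer cells of a type and less RNA per cell cannot be told apart.

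In NPC, 8 of the 10 genes differed between knockout and wild type at an adjusted p under 0.05, with 3 higher (Igf1, Igf2, Igfbp5) and 5 lower (Igf1r, Igf2r, Igfbp2, Igfbp3, Igfbpl1). Over all genes tested, 27.4% passed, 14.7% higher and 12.7% lower. The median change of the 10 genes was -0.27 on the log2 scale, against 0.05 over all genes tested. Changes come from limma, a linear model fitted to log2(FPKM + 1) across 13318 genes and all 8 libraries, with p-values adjusted over those genes by the Benjamini-Hochberg method. Adding 1 understates the change of low genes. In ESC, 0 of the 10 genes passed in limma, where 0.248% of all genes tested did, 0.128% higher and 0.12% lower. At an unadjusted p under 0.05, Igf2 and Igf1r did in ESC, as did 1686 genes in all. H19, Igf1 and Igfbp5 had no ESC library at 1 FPKM, and Igfbp4 and Igfbpl1 had 1. These genes had little room to pass in ESC, so the count of 0 says little about them.

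**Figure D1:**
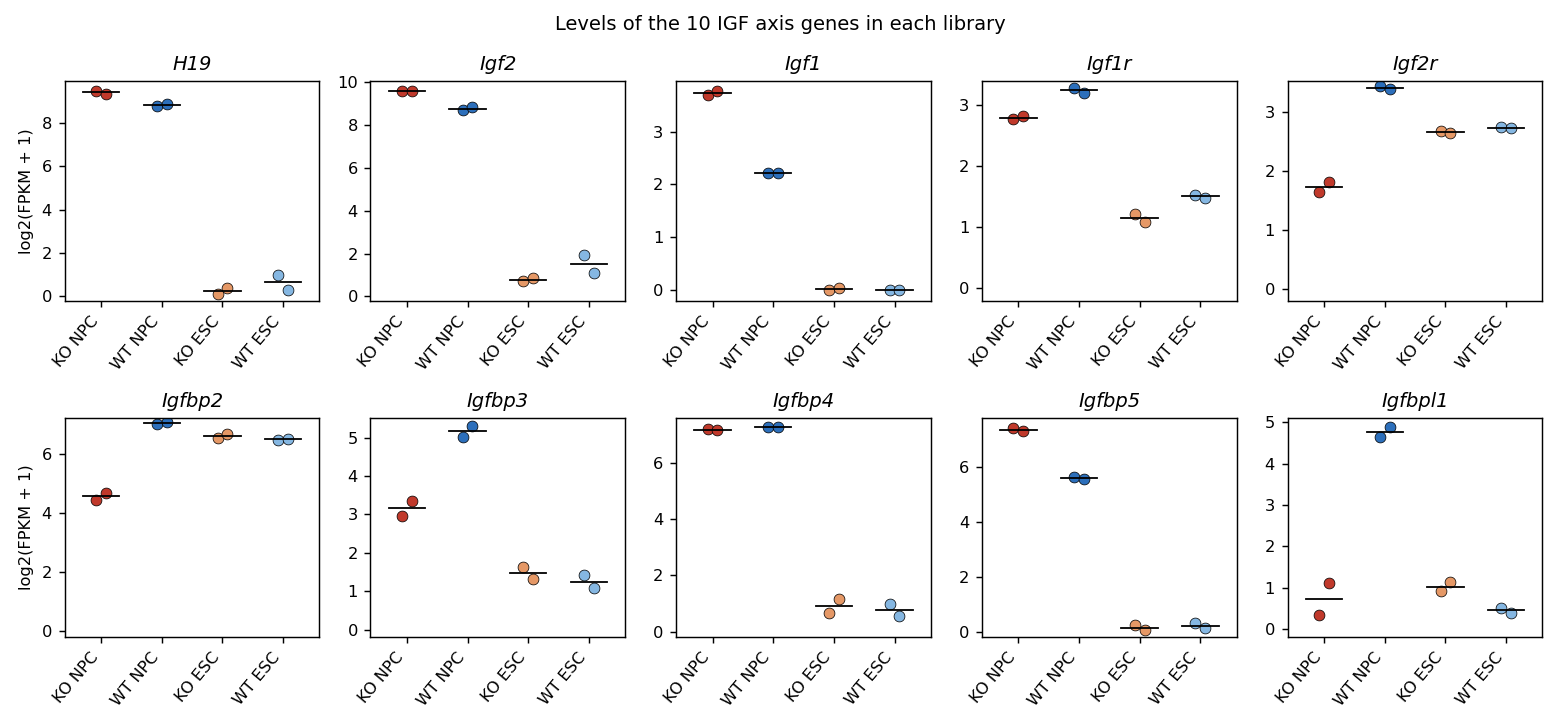
Level of each of the 10 genes as log2(FPKM + 1) in each library (points) with the group mean (line), for KO NPC, WT NPC, KO ESC and WT ESC, each panel on its own axis. KO NPC lie above WT NPC for H19, Igf2, Igf1 and Igfbp5 and below them for Igf1r, Igf2r, Igfbp2, Igfbp3 and Igfbpl1, while Igfbp4 is nearly level.

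The ligand RNAs were both higher in KO NPC. Igf2, the main fetal IGF, had 786 and 774 FPKM in KO NPC, against 416 and 463 in WT NPC, and 0.640 and 0.798 in KO ESC, against 2.88 and 1.15 in WT ESC. The groups did not overlap at either stage, with KO above WT in NPC and below it in ESC. The change in NPC was 0.83 ± 0.24 on the log2 scale (SE, adjusted p = 0.0416), a ratio of mean FPKM of 1.77. This call sat close to the threshold: the adjusted p was 0.0114 in a fit of the NPC groups only and 0.0677 after median-ratio scaling, and it ran from 0.0015 to 0.169 as single libraries were left out. Leaving out any 1 of the 4 NPC or 2 KO ESC libraries ended the call. In ESC the change was -0.75 ± 0.24 and did not pass (adjusted p = 0.293), although it did without WT ESC replicate 2 (0.0298). By FPKM, Igf2 stood at rank 106 and 112 among all genes in KO NPC and 169 and 151 in WT NPC.

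Igf1, the ligand that mediates much of growth hormone action after birth, was far lower than Igf2 at every stage. It had 11.9 and 12.6 FPKM in KO NPC, against 3.62 and 3.66 in WT NPC. In ESC it was listed at 0 and 0.0256 FPKM in KO and at 0 in both WT libraries. The NPC groups did not overlap, and the change was 1.51 ± 0.11 on the log2 scale (adjusted p = 1.1e-04), a ratio of mean FPKM of 3.37. Per library, Igf2 exceeded Igf1 by a factor of 66.2 and 61.3 in KO NPC and 115 and 127 in WT NPC. Igf1 thus made up a larger part of the ligand RNA in KO NPC, although Igf2 remained the larger of the ligands. The insulin genes Ins1 and Ins2 were listed at 0 in NPC of either genotype.

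H19, a long noncoding RNA that limits fetal growth in mice, ran close to Igf2. It had 712 and 657 FPKM in KO NPC, against 445 and 470 in WT NPC, and 0.0893 and 0.292 in KO ESC, against 0.973 and 0.241 in WT ESC. The NPC groups did not overlap and the ESC groups did. The change in NPC was 0.58 ± 0.20 on the log2 scale, and it did not pass (adjusted p = 0.0760). It passed without WT ESC replicate 1 (0.0104), without WT ESC replicate 2 (0.0103) and in a fit of the NPC groups only (0.0195) and not under the other 13 alternatives. Per unit of Igf2, H19 stood at 0.906 and 0.849 in KO NPC and 1.07 and 1.01 in WT NPC. The RNAs of this locus were thus near a ratio of 1 in NPC, slightly below it in KO and slightly above it in WT.

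H19 (chr7:149761435-149764051) and Igf2 (chr7:149836673-149846940) lie 72.6 kb apart in mm9, the build of the tables. Each hosts a microRNA hairpin. In GRCm38.p6, by GENCODE M21, Mir675 lies inside an exon in 3 of the 4 H19 transcripts that span it, and Mir483 in an exon of 0 of the 7 Igf2 transcripts that span it. The mature sequences, from RefSeq and given 5′ to 3′ with the seed (bases 2 to 8) in capitals, are shown because both hairpins are carried by the transcripts just described. No seed is shared among the 4.
miR-675-5p: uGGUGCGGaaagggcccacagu
miR-675-3p: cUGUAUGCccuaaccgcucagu
miR-483-5p: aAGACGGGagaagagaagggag
miR-483-3p: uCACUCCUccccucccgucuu
Poly(A) libraries do not measure mature microRNAs. The tables list Mir675 at or near 0 in every library, although H19 itself reached 712 FPKM. Mir483 was listed at 577 and 1081 FPKM in KO NPC, against 270 and 0 in WT NPC, and at 0 in ESC, and it did not pass (adjusted p = 0.102). For so short a feature inside a highly expressed host, these values cannot be separated from reads of Igf2.

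RefSeq (GRCm38.p6) gives 4 start sites for Igf2. The 250 bases before the most downstream of them (chr7:142657497-142657746, minus strand) are printed because Igf2 is the more abundant of the ligands, with matches to the GC box letters GGGCGG in capitals.
Igf2: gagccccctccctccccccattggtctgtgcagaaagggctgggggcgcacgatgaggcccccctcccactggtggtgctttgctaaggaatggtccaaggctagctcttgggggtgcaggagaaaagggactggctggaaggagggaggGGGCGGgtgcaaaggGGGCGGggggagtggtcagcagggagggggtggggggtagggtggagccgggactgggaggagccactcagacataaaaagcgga
The GC box letters begin 100 and 85 bases before the start. On both strands, 32.7% of the 32851 mouse promoter windows of this length held GGGCGG. A match is a description of the sequence and not a binding site.

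Within 200 kb of the span from H19 to Igf2 the tables list 14 genes, and KO NPC differed at several. Lsp1, an actin-binding protein of leukocytes, had 27.1 and 23.7 FPKM in KO NPC, against 9.11 and 9.80 in WT NPC, a change of 1.33 ± 0.17 (adjusted p = 0.0015). Ctsd, the lysosomal protease cathepsin D, had 94.5 and 91.5 FPKM in KO NPC, against 62.9 and 58.0 in WT NPC, a change of 0.61 ± 0.08 (adjusted p = 0.0020). Mrpl23, a mitochondrial ribosomal protein gene between them and H19, had 68.0 and 65.2 FPKM in KO NPC, against 66.8 and 66.8 in WT NPC, with overlapping groups and no call (adjusted p = 0.994). The higher levels were thus not shared by every expressed gene of the region. Igf2os, which overlaps Igf2 on the opposite strand, had 11.6 and 10.7 FPKM in KO NPC, against 4.27 and 5.37 in WT NPC, a change of 1.07 ± 0.13 (adjusted p = 0.0013). The library kit marks strand, but whether the counting used it is not given in the sources used here, so reads of Igf2os and Igf2 cannot be told apart. Ins2 was at 0 throughout and Nctc1 near 0, while Syt8, Tnni2, Prr33 and Tnnt3 stayed under 2 FPKM.

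**Figure D2:**
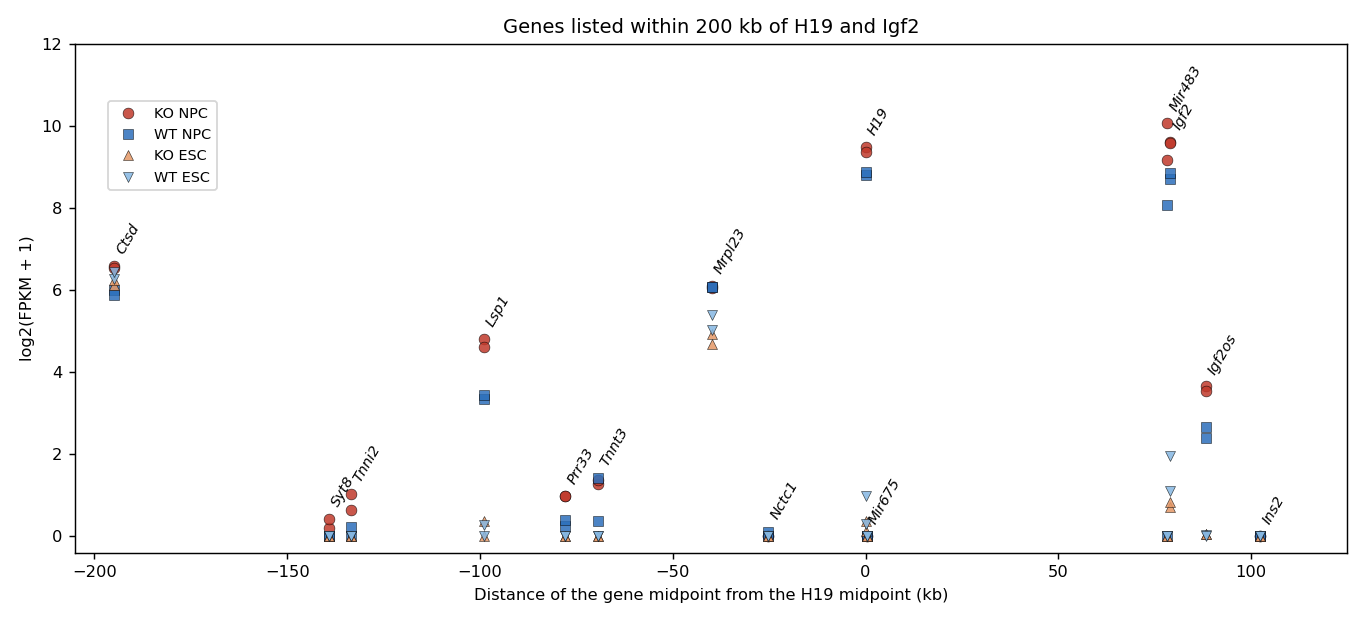
Levels as log2(FPKM + 1) of the 14 genes listed around H19 and Igf2, against the distance of each gene's midpoint from that of H19 in kb; each symbol is 1 library of KO NPC, WT NPC, KO ESC or WT ESC. KO NPC lie above WT NPC at Lsp1, Ctsd, H19, Igf2 and Igf2os and level with them at Mrpl23.

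The receptors were both lower in KO NPC. Igf2r, the receptor that clears IGF2, had 2.12 and 2.51 FPKM in KO NPC, against 9.85 and 9.47 in WT NPC, and 5.42 and 5.27 in KO ESC, against 5.70 and 5.61 in WT ESC. KO NPC were the lowest of the 4 groups and WT NPC the highest. The change in NPC was -1.69 ± 0.11 on the log2 scale (adjusted p = 7.6e-05), which puts mean FPKM 4.17 times lower in KO NPC. In ESC it was -0.07 ± 0.11 (adjusted p = 0.854). The ratio of Igf2 to Igf2r RNA was 371 and 308 in KO NPC and 42.3 and 48.9 in WT NPC, where the ligand and its clearance receptor had moved in opposite directions.

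Airn, the noncoding RNA that runs antisense through Igf2r and silences it on the paternal allele in mice, was higher in KO NPC. It had 26.6 and 31.9 FPKM in KO NPC, against 4.67 and 8.08 in WT NPC, and was listed at 0 in all 4 ESC libraries. The change in NPC was 2.07 ± 0.22 on the log2 scale (adjusted p = 6.6e-04). Airn and Igf2r thus changed in opposite directions in NPC. Since the use of strand in counting is not stated, reads from the overlap of the pair cannot be told apart.

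Igf2r lies at chr17:12875272-12962572 (mm9). Its promoter window (RefSeq, GRCm38.p6, chr17:12769707-12769956, minus strand, 250 bases before the start) is shown because Igf2r is the receptor that changed most. Capitals mark GGGCGG and the retinoid receptor half-site letters AGGTCA, searched on both strands.
Igf2r: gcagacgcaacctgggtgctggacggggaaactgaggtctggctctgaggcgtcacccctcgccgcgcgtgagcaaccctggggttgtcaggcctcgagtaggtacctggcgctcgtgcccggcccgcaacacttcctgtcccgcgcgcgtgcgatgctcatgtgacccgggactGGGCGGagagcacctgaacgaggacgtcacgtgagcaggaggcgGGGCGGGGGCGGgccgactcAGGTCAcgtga
The GC box letters begin 75, 31 and 25 bases before the start, and AGGTCA 11 bases before it. AGGTCA was in 14% of all promoter windows of this length. It was also in windows of Igf1r, lower in KO NPC, and of Igf1 and Igf2, higher there. A direct repeat of these letters with 5 other bases between was in 0.00913% of all windows and in no window of these genes.

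Igf1r, the signalling receptor, changed less. It had 5.83 and 6.02 FPKM in KO NPC, against 8.72 and 8.17 in WT NPC, and 1.32 and 1.13 in KO ESC, against 1.88 and 1.79 in WT ESC. KO lay below WT without overlap at both stages. The change was -0.45 ± 0.11 in NPC (adjusted p = 0.0231) and -0.35 ± 0.11 in ESC (adjusted p = 0.289), and the difference between the stages did not pass at -0.10 ± 0.16 (95% interval -0.46 to 0.27, adjusted p = 0.726). The call in NPC was lost when any of the 4 NPC libraries was left out (0.0602 to 0.0997). The insulin receptor Insr had 7.21 and 6.46 FPKM in KO NPC, against 7.65 and 9.06 in WT NPC, and did not pass (-0.25 ± 0.15, adjusted p = 0.272).

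**Figure D3:**
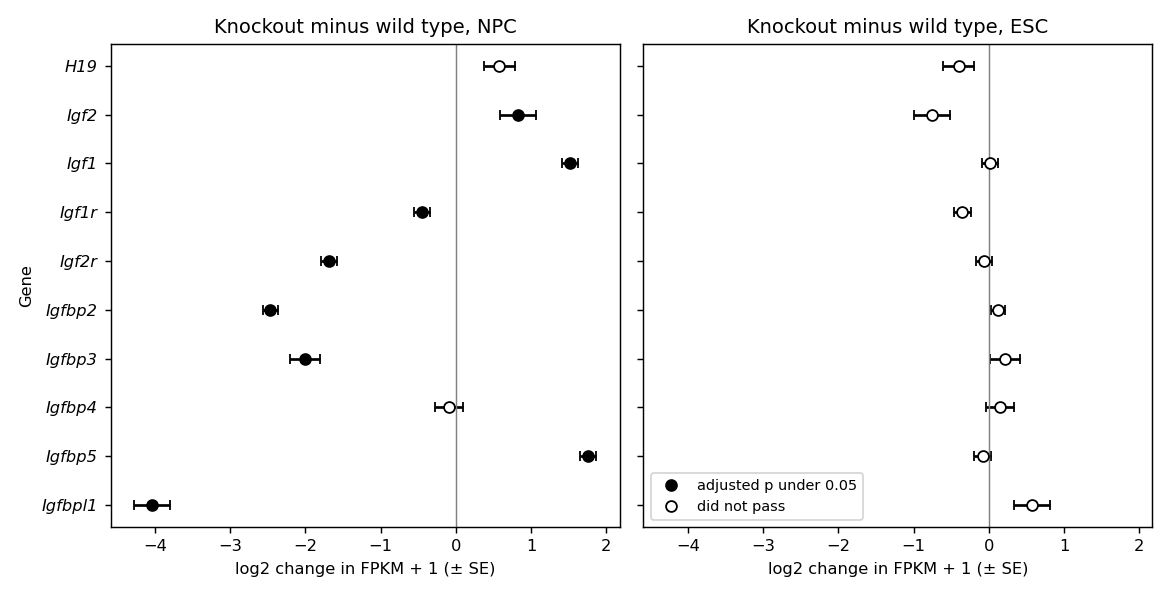
Knockout minus wild type in log2(FPKM + 1) for each of the 10 genes, with the standard error from limma, in NPC (left) and ESC (right). Filled points passed at an adjusted p under 0.05, which 8 genes did in NPC and 0 in ESC.

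Of the 5 binding protein genes, 4 changed in KO NPC, 3 lower and 1 higher, and Igfbp4 did not pass. Igfbp2, an abundant binding protein of embryonic neuroepithelium, had 20.8 and 24.7 FPKM in KO NPC, against 126 and 134 in WT NPC, and 90.7 and 101 in KO ESC, against 87.8 and 88.5 in WT ESC. KO NPC were well below the other 3 groups. The change in NPC was -2.47 ± 0.10 on the log2 scale (adjusted p = 2.0e-05), or 5.71 times lower in mean FPKM. Igfbp5, which binds IGFs and the extracellular matrix, had 169 and 155 FPKM in KO NPC, against 48.0 and 46.3 in WT NPC, and at most 0.246 in ESC. Its change in NPC was 1.76 ± 0.11 (adjusted p = 7.4e-05), or 3.44 times higher in mean FPKM.

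Igfbp2 (chr1:72871054-72899045) and Igfbp5 (chr1:72904639-72921439) are neighbours in mm9, 5.59 kb apart, and they changed in opposite directions. Their promoter windows of 250 bases are set side by side for this reason (RefSeq, GRCm38.p6). Igfbp2 is on the plus strand at chr1:72824230-72824479, upstream of its first start, and Igfbp5 on the minus strand at chr1:72874866-72875115. Capitals mark GGGCGG.
Igfbp2: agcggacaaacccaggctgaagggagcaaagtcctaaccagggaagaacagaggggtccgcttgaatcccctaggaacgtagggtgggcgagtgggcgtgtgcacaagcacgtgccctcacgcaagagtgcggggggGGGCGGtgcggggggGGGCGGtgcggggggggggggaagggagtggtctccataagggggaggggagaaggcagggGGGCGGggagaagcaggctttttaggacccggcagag
Igfbp5: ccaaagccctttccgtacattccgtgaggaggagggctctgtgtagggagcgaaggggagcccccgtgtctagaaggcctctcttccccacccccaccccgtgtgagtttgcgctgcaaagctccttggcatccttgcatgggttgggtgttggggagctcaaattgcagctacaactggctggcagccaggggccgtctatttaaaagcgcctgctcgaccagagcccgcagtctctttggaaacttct
The Igfbp2 window holds GGGCGG at 113, 98 and 37 bases before the start, and the Igfbp5 window holds none of the motifs searched. The GC content was 67.2% in this Igfbp2 window with 14 CpG dinucleotides, and 58.8% in the Igfbp5 window with 10. The window of the other Igfbp2 start (chr1:72825137-72825386) also held none of the motifs, with 56.4% GC and 11 CpG dinucleotides. The contrast with Igfbp5 thus holds for the first Igfbp2 start only. The medians over all promoter windows were 52.4% and 6. Of the windows of these genes, the TATA box letters TATAAA were in that of Igfbp4 only, 28 bases before the start, and in 12.4% of all windows.

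Igfbpl1, a binding-protein-like gene expressed in the developing nervous system, had the largest change of the 10 genes. It had 0.273 and 1.15 FPKM in KO NPC, against 24.0 and 28.5 in WT NPC, and 0.884 and 1.21 in KO ESC, against 0.423 and 0.318 in WT ESC. KO NPC stood near the ESC level. About 8 and 35 fragments lay behind the values in KO NPC, against 748 and 646 in WT NPC. The change in NPC was -4.04 ± 0.24 (adjusted p = 6.6e-05). In ESC the groups did not overlap, with KO above WT, and the change of 0.57 ± 0.24 did not pass (adjusted p = 0.399).

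Igfbp3, the main carrier of IGFs in blood, had 6.81 and 9.22 FPKM in KO NPC, against 31.4 and 38.5 in WT NPC, and 2.08 and 1.48 in KO ESC, against 1.67 and 1.12 in WT ESC. The NPC groups did not overlap, and the change was -2.0 ± 0.20 (adjusted p = 5.0e-04). Igfbp4, which mostly inhibits IGF action, had 145 and 141 FPKM in KO NPC, against 153 and 152 in WT NPC, and between 0.486 and 1.26 in ESC. Its change in NPC was -0.09 ± 0.19 and did not pass (95% interval -0.53 to 0.35, adjusted p = 0.761).

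The makeup of the binding protein RNA differed more between the NPC groups than its sum. Summed over the 5 genes, they had 342 and 331 FPKM in KO NPC, against 382 and 399 in WT NPC, and 94.4 and 105 in KO ESC, against 91.1 and 90.5 in WT ESC. Igfbp5 made up 49.5% and 46.8% of the sum in KO NPC and 12.6% and 11.6% in WT NPC. Igfbp2 made up 6.08% and 7.48% in KO NPC and 32.9% and 33.6% in WT NPC, while in ESC it was 96.0% to 97.8%. Igfbp4 held a similar share throughout NPC, at 42.3% and 42.6% in KO NPC and 40.0% and 38.0% in WT NPC. Igfbp3 made up at most 2.79% in KO NPC and at least 8.22% in WT NPC, and Igfbpl1 at most 0.347% in KO NPC and at least 6.29% in WT NPC. The shares are of RNA and not of protein.

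**Figure D4:**
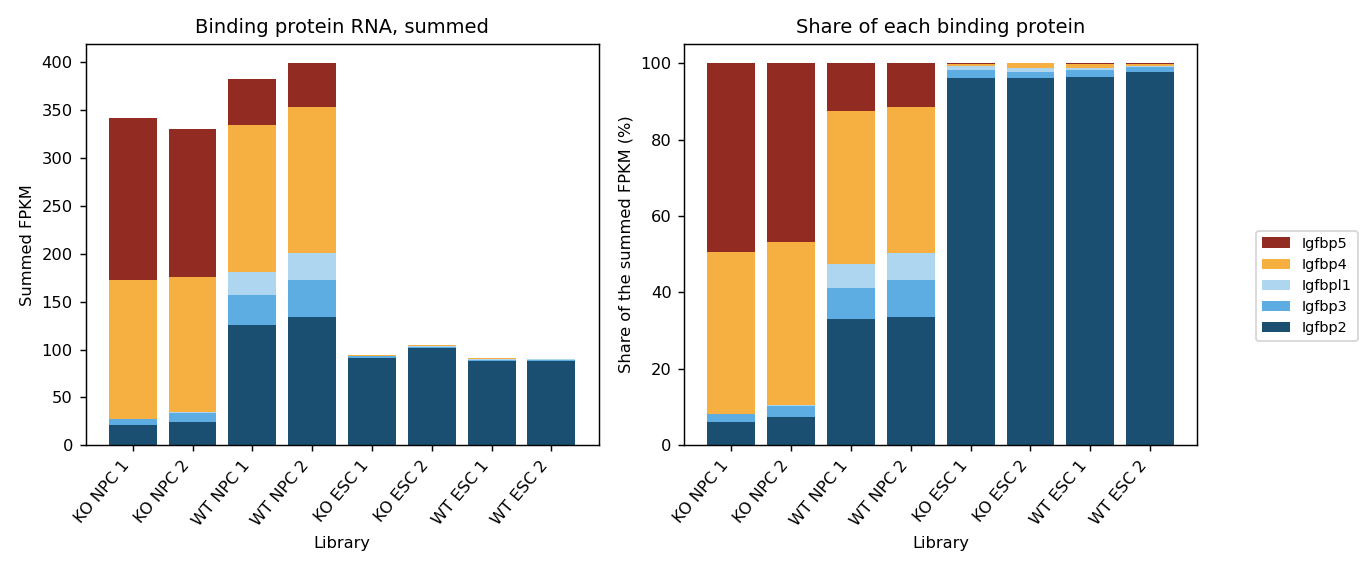
Summed FPKM of the 5 binding protein genes in each library (left) and the percent of that sum from each gene (right), with libraries in the order KO NPC, WT NPC, KO ESC and WT ESC. Igfbp5 and Igfbp4 make up most of the sum in KO NPC, Igfbp4 and Igfbp2 in WT NPC, and Igfbp2 nearly all of it in ESC.

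The knockout effect was set against stage by the difference of the effects, NPC minus ESC. It passed for 7 of the 10 genes, where 16.8% of all genes tested passed, 8.41% positive and 8.39% negative. It was positive for Igf1 (1.50 ± 0.15), Igf2 (1.58 ± 0.34) and Igfbp5 (1.84 ± 0.16). It was negative for Igf2r (-1.62 ± 0.15), Igfbp2 (-2.59 ± 0.14), Igfbp3 (-2.22 ± 0.28) and Igfbpl1 (-4.61 ± 0.35). Of these, Igf2 had the largest adjusted p (0.0217), and it lost the call when any of the 4 NPC libraries or either KO ESC library was left out (up to 0.0746). H19 did not pass (0.98 ± 0.29, adjusted p = 0.0601), nor did Igfbp4 (-0.25 ± 0.26, adjusted p = 0.577). Igf1 and Igfbp5 were under 1 FPKM in every ESC library, with changes there of 0.018 and -0.079. Their differences therefore nearly repeat their changes in NPC (1.51 and 1.76) and are no separate result on stage.

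In wild-type cells, each of the 10 genes was higher in NPC than in ESC, where 72.6% of all genes tested passed and 41.6% were higher. H19, Igf1 and Igfbp5 had no ESC library at 1 FPKM, and Igfbp4 and Igfbpl1 had 1, in knockout. These genes entered the test only through their NPC levels and had to differ, so the count is a description and their changes between stages are no independent result. The changes were 8.19 ± 0.20 for H19, 7.25 ± 0.24 for Igf2, 6.48 ± 0.19 for Igfbp4 and 5.36 ± 0.11 for Igfbp5 on the log2 scale. Igfbpl1 rose by 4.31 ± 0.24, Igfbp3 by 3.91 ± 0.20 and Igf1r by 1.74 ± 0.11. The smallest changes were those of Igf2r (0.68 ± 0.11, adjusted p = 8.5e-04) and Igfbp2 (0.55 ± 0.10, adjusted p = 0.0015), the genes already well expressed in ESC. For Igf1, at 0 in WT ESC, no fold is given. The median over all genes tested was 0.15, and -0.01 after quantile normalization.

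In knockout cells, 9 of the 10 genes differed between NPC and ESC, with 7 higher and 2 lower, where 70.3% of all genes tested passed. Background shares by direction were 41.6% higher and 28.8% lower. Of the higher genes, H19, Igf1, Igfbp4 and Igfbp5 entered the test only through their NPC levels. The count is thus again a description, and their rises are no independent result. Igf2r was lower in KO NPC than in KO ESC (-0.94 ± 0.11, adjusted p = 1.7e-04), as was Igfbp2 (-2.03 ± 0.10, adjusted p = 2.5e-06). Both were higher in NPC in wild type. Igfbpl1 did not pass (-0.30 ± 0.24, adjusted p = 0.301), and its sign turned without KO NPC replicate 1 (0.076). The other members rose: H19 by 9.17 ± 0.20, Igf2 by 8.83 ± 0.24, Igfbp5 by 7.19 ± 0.11, Igfbp4 by 6.24 ± 0.19, Igf1 by 3.71 ± 0.11, Igfbp3 by 1.69 ± 0.20 and Igf1r by 1.64 ± 0.11. The median over all genes tested was 0.17, and 0.00 after quantile normalization. The knockout and wild-type comparisons of stage share no library with each other, but each shares its libraries with the comparisons of genotype above.

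Beyond the 10 genes, 67 others of the pathway and its imprinted surroundings were listed, and 56 were tested. In KO against WT NPC, 17 were higher, 7 lower and 32 did not pass, where 14.7% of all genes tested were higher and 12.7% lower. The median change was 0.18, against 0.05 over all genes tested. In ESC, 1 was higher and 1 lower, where 0.248% of all genes tested passed. Among receptor adaptors and docking proteins, 3 of 8 tested were higher and 2 lower, beside the 14.7% and 12.7% over all genes tested. Grb10, an imprinted adaptor that restrains insulin and IGF receptor signalling, had 2.15 and 1.33 FPKM in KO NPC, against 25.4 and 22.4 in WT NPC, and 1.71 and 1.96 in KO ESC, against 5.99 and 6.13 in WT ESC. It was the only one of these genes lower in KO at both stages past the threshold, with changes of -3.20 ± 0.16 in NPC (adjusted p = 3.5e-05) and -1.32 ± 0.16 in ESC (adjusted p = 0.0355). The call in ESC was lost in 11 of 16 alternatives (adjusted p up to 0.270), among them leaving out any ESC library or any WT NPC library. Its effect was larger in NPC (difference -1.88 ± 0.23, adjusted p = 0.0025). Irs1, a docking protein of the IGF1 receptor, was lower in KO NPC (-0.82 ± 0.11, adjusted p = 0.0018, and 0.0518 at a pseudocount of 0.1). The adaptors Shc1 (0.93 ± 0.10, adjusted p = 7.7e-04) and Gab1 (0.61 ± 0.09, adjusted p = 0.0030) were higher.

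In the PI3K-AKT-mTOR branch, 6 of 16 genes were higher in KO NPC and 1 lower, beside 14.7% and 12.7% of all genes tested. Of the FOXO transcription factors listed, which AKT keeps out of the nucleus, Foxo1 (1.09 ± 0.13, adjusted p = 0.0012) and Foxo4 (0.69 ± 0.10, adjusted p = 0.0026) were higher. For Foxo3 the groups overlapped, at 6.76 and 6.84 FPKM in KO NPC, against 5.45 and 6.94 in WT NPC. Pik3r1, a regulatory subunit of PI3K, changed by 0.59 ± 0.11 (adjusted p = 0.0065). Of the binding protein proteases and their inhibitors, Htra1 was lower in KO NPC (-0.97 ± 0.13, adjusted p = 0.0021), at 0 and 0.0878 FPKM against 1.14 and 0.956 in WT NPC, and the other 2 tested did not pass. Of the other binding proteins tested, Igfbp6 had 0.238 and 0.297 FPKM in KO NPC, against 1.04 and 1.11 in WT NPC, and 0 in ESC. It entered the test only through WT NPC, so its change (-0.71 ± 0.10) is a description. Igfbp7 did not pass (0.20 ± 0.14, adjusted p = 0.331).

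The imprinted gene network, genes reported to be expressed together in mouse embryonic growth, had 4 of 13 members higher in KO NPC and 3 lower, beside 14.7% and 12.7% of all genes tested. Cdkn1c, a maternally expressed inhibitor of cyclin-dependent kinases, had 2.68 and 3.36 FPKM in KO NPC, against 95.4 and 101 in WT NPC (-4.63 ± 0.15, adjusted p = 2.0e-05). Dcn, which codes for the matrix protein decorin, had 0.758 and 0.810 FPKM in KO NPC, against 3.34 and 3.52 in WT NPC. It entered the test only through WT NPC, so its change (-1.31 ± 0.11) and its place among the lower genes are a description. Dcn is also in the feeder fibroblast list. The paternally expressed Peg3 had 197 and 231 FPKM in KO NPC, against 109 and 97.4 in WT NPC (1.04 ± 0.13, adjusted p = 0.0012). In ESC, Sgce was the gene that was higher, with 5.79 and 9.04 FPKM in KO ESC, against 1.65 and 1.61 in WT ESC (1.65 ± 0.17, adjusted p = 0.0214). That call was lost in 8 of 16 alternatives, among them leaving out any NPC or any WT ESC library (adjusted p up to 0.146 with a library left out). Imprinted genes thus moved in both directions, and 6 of the 13 network genes did not pass. Igf2 moved with Peg3 and opposite to Cdkn1c and Grb10. The maternally expressed H19 was also higher in KO NPC, without a call. A split by parental allele was not tested.

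Of the regulators of the H19 and Igf2 imprint, 2 of 8 were higher in KO NPC and 0 lower, a share near the 27.4% of all genes tested that passed. The DNA methyltransferase Dnmt3a changed by 0.48 ± 0.11 (adjusted p = 0.0172) and Uhrf1, which guides maintenance methylation, by 0.27 ± 0.07 (adjusted p = 0.0287). The call of Dnmt3a was lost without KO NPC replicate 1, KO NPC replicate 2 or WT NPC replicate 2 (adjusted p up to 0.101), and that of Uhrf1 in 7 of 16 alternatives (up to 0.133), 3 of them leaving out an NPC library. Ctcf, which binds the control region between H19 and Igf2, had 47.1 and 51.7 FPKM in KO NPC, against 42.7 and 42.2 in WT NPC, and did not pass (adjusted p = 0.130). The Igf2 mRNA-binding proteins Igf2bp1, Igf2bp2 and Igf2bp3 did not pass in NPC (adjusted p from 0.353 to 0.816), and the small changes of Igf2bp1 and Igf2bp3 turned sign under some alternatives. DNA methylation was not measured.

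**Figure D5:**
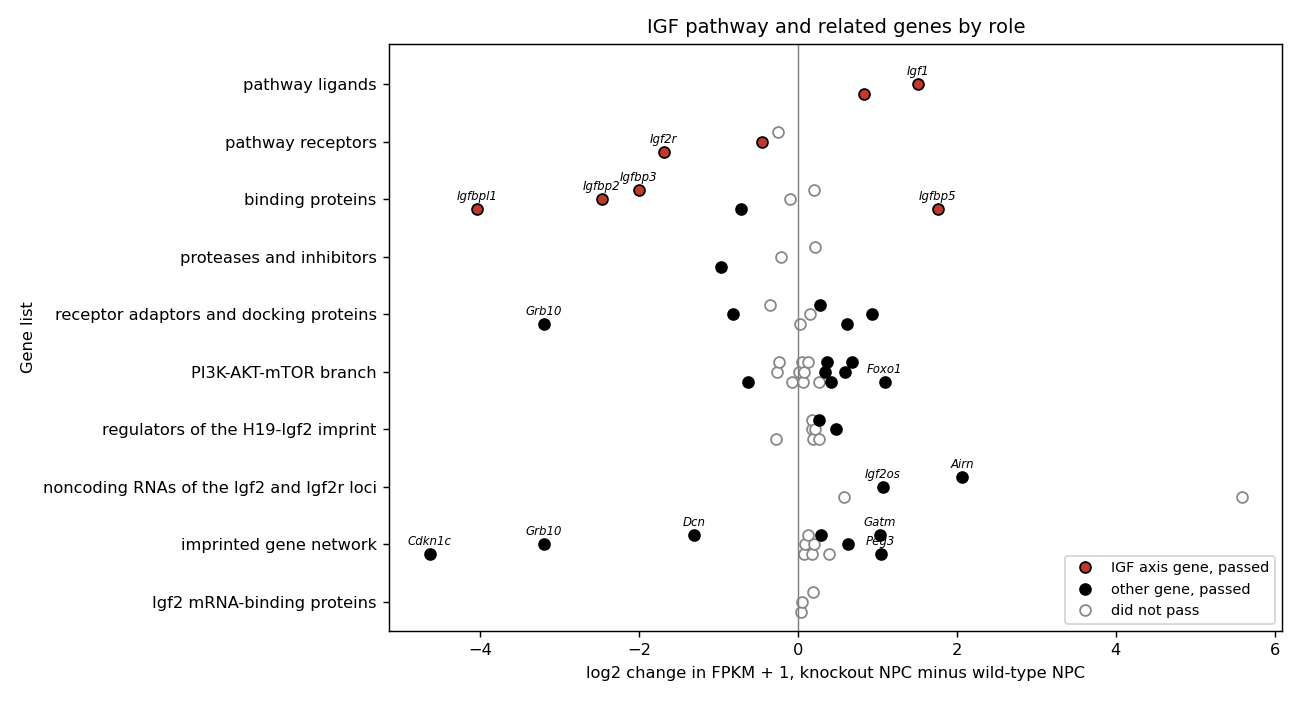
KO NPC minus WT NPC in log2(FPKM + 1) for every tested gene of the pathway lists (rows), with the 8 IGF axis genes that passed at an adjusted p under 0.05 in red, other genes that passed in black and those that did not pass as open points (the one at 5.59 is Mir483). Ligands lie to the right, receptors to the left, and binding proteins on both sides; Cdkn1c at -4.63 and Grb10 at -3.20 are the lowest of the black points.

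The pattern of H19 and of Igf2 across the 8 libraries was compared with that of 9172 genes by the root mean square difference of centred log2(FPKM + 1). Each was the closest gene to the other, at 0.36. Hoxa5 and Cyp26b1 came next for both. For H19 they stood at 0.89 and 0.90, and for Igf2 at 0.65 and 0.73. Hoxa5, a homeobox gene, had 188 and 162 FPKM in KO NPC, against 153 and 156 in WT NPC. Cyp26b1, which breaks down retinoic acid, had 130 and 131 FPKM in KO NPC, against 219 and 215 in WT NPC. It is thus near H19 and Igf2 by the contrast of NPC with ESC, while its order of genotypes in NPC is the opposite. Hotairm1 followed for both, at 1.14 for H19 and 0.94 for Igf2. The fifth was Igfbp4 for H19 (1.21) and Hoxa4 for Igf2 (0.94).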

How the data were processed

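Per the submitters' processing notes, TopHat2 2.1.1, Cufflinks 2.2.1 and mm9 were used. The authors deposited FPKM per gene and library, with a 95% confidence interval and no counts, so depth was inferred from those intervals. Each table had 24854 entries; the 821 entries of 285 symbols with several were summed, and 12 symbols with a failed estimate were dropped, which left 24306.

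The 13318 genes that reached 1 FPKM in 2 or more libraries entered a limma 3.58.1 fit (R 4.3.3) of log2(FPKM + 1). It had 4 group means, 4 residual degrees of freedom and a trend of variance with level. Tests were two-sided with Benjamini-Hochberg adjustment per contrast over all genes tested. The alternatives were quantile normalization, median-ratio scaling, leaving out the filter or raising it to 5 FPKM, a pseudocount of 0.1, taking the highest entry of a symbol, fitting only the groups compared, a replicate block, and leaving out each library.

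The 10 genes and all lists were chosen with earlier results of these data known. The text names the 10 genes, Dcaf7, the genes within 200 kb of H19 and Igf2, and the 5 genes most like each. It also names up to 4 called genes with the largest change per pathway list, in the comparisons of genotype and in their difference. A gene that this rule names is not reported here. Igfbp6, Igfbp7, Insr, Ctcf, Foxo3 and the Igf2bp genes were named after their values were seen. The marker genes named do not follow the rule, and the trophoblast and heart muscle marker lists are not described. Starts in the tables count from 0 (in 934 of 950 microRNA hairpins the end minus the start equalled the hairpin length), so 1 was added. Sequences come from RefSeq tables of GRCm38.p6, in which 8 of the 10 genes matched, with 12 windows. They are of another build than the tables' positions. The limma fit was checked on simulated data.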

Additional observations from a re-analysis of the deposited data

Results flagged for a closer look

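For 7 genes the knockout effect in NPC differed from that in ESC by the test of the difference itself (limma, all 8 libraries). The differences, NPC minus ESC, in log2(FPKM + 1) were 1.50 for Igf1 (adjusted p = 0.0012), 1.58 for Igf2 (0.0217) and 1.84 for Igfbp5 (6.4e-04). They were -1.62 for Igf2r (9.1e-04), -2.59 for Igfbp2 (2.2e-04), -2.22 for Igfbp3 (0.0030) and -4.61 for Igfbpl1 (4.0e-04). Igf1 and Igfbp5 were under 1 FPKM in every ESC library, so their differences nearly repeat their changes in NPC. For Igf2, Igfbp2 and Igfbpl1 the knockout libraries lay on opposite sides of the wild-type libraries at the stages, with no overlap at either stage. For Igf2 both KO NPC libraries lay above both WT NPC libraries and both KO ESC libraries below both WT ESC libraries, and for Igfbp2 and Igfbpl1 the order was the reverse. None of the 3 passed in ESC alone by limma. The changes there were -0.75 for Igf2 (adjusted p = 0.293), 0.12 for Igfbp2 (0.654) and 0.57 for Igfbpl1 (0.399). With 2 libraries against 2, the smallest p an exact permutation can give is 0.333, so such a separation is weak by itself. The share of all genes separated in this way was not counted, and a reversal is not shown.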

How the results depend on the processing

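In KO against WT NPC, Igf1, Igf2r, Igfbp2, Igfbp3, Igfbp5 and Igfbpl1 kept their direction and call under each of the 16 alternatives. Igf2 kept its direction and lost its call in 10 of them, with an adjusted p of 0.140 at a pseudocount of 0.1, 0.166 with no filter and 0.0677 with median-ratio scaling. Igf1r lost its call in 6, with 0.0598 at a pseudocount of 0.1 and 0.0568 with only the groups compared. The count of the 10 genes called ran from 6 to 9 as single libraries were left out, against 8, and in ESC from 0 to 1, against 0. Over all genes, single libraries left out gave 2281 to 3340 calls in NPC, against 3648, 10 to 18 in ESC, against 33, and 1283 to 1822 for the difference, against 2237. In ESC only the groups compared gave 3 calls. Median-ratio scaling changed the split of calls in NPC to 1385 higher and 1966 lower, against 1962 and 1686, and for the difference to 816 and 1259, against 1120 and 1117. With the replicate number as a block, Igf2 in NPC had an adjusted p of 0.0548, 7 of the 10 genes passed there, and 15 genes passed in ESC. Libraries of the same number did not deviate together (r from -0.054 to 0.18 over 6 pairs of groups), so the block is no pairing. Signs turned for small changes that had not passed. With single libraries left out, the change in ESC ran from 0 to 0.037 for Igf1, from -0.10 to 0.40 for Igfbp4 and from -0.17 to 0.0085 for Igfbp5. That of Igfbpl1 in KO NPC against KO ESC ran from -0.68 to 0.076, and the difference for Igfbp4 from -0.50 to 0.0048. The difference for Igf1r was 0.046 at a pseudocount of 0.1, and that for Dcaf7 was -0.035 with quantile normalization. In KO against WT NPC, the change of Igf2bp1 was -0.028 with median-ratio scaling, -0.035 with quantile normalization and -0.0083 to 0.12 with single libraries left out, and that of Igf2bp3 was -0.049, -0.038 and -0.028 to 0.099. Igfbpl1 in KO NPC against KO ESC passed, lower, with quantile normalization and without KO NPC replicate 2. The cause of these changes was not tested. With 2 libraries per group, small changes of genes near 1 FPKM, which rested on a median of 19 to 28.3 fragments, are beyond these data.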
